A study of Homo sapiens with 16 samples.

Results

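Drug-resistant melanoma cells of 2 lines were compared at the last time point each line was followed after its drug was taken away. The measure was the change in A375 (48 h off drug minus on drug) minus the change in 451Lu (120 h off drug minus on drug), gene by gene, and the genes that changed in both lines were counted beside it. These 4 groups of 2 libraries make up 8 of the 16 RNA sequencing libraries of the series, their groups come from the labels, and all 16 entered the fit. DR A375 cells, called A375 here, are a derivative of the human melanoma line A375. They were either kept on dabrafenib (0.5 µM) with trametinib (0.05 µM) or moved to DMSO for 48 h. The 451Lu BR cells, called 451Lu here, derive from another human melanoma line. They were either kept on dabrafenib (1 µM) or moved to DMSO for 120 h. The labels of 451Lu differ on its drug: only dabrafenib appears in the treatment notes, whose dose is given here, but resistance to both drugs appears in the source name.

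Line, drug, dose and time off drug all differ between the 2 changes and cannot be told apart. No on-drug cells were sampled at the later times, so withdrawal and days in culture cannot be told apart. Whether the 2 libraries of a group are separate cultures is not stated in the labels, and the p-values then cover only the spread between these samples, which may be technical. The resistant cells are 1 derivative per line.

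Most cutaneous melanomas carry an activated BRAF kinase, which signals through MEK to the kinase ERK. ERK drives cyclin D1 and a set of feedback inhibitors, and dabrafenib (against BRAF) and trametinib (against MEK) switch this output off. Cells that became resistant often depend on the drug: when it is withdrawn ERK activity can overshoot, proliferation can stop, and pigment cell identity can give way to an invasive, mesenchymal-like state.

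The 8 libraries held 10863255 to 16447548 counts each. Levels are CPM, counts scaled to a common TMM-adjusted library size, and they are relative to the other genes rather than amounts of RNA per cell. In 451Lu at 120 h FN1 alone took 6.15% and 6.25% of all counts, against 0.0671% and 0.0741% on drug. Melanocyte lineage markers were present in all 4 groups except TYRP1, which had 0 counts in 451Lu at 120 h. SOX10, a factor of the neural crest and pigment lineage, stood at 608 and 544 CPM on and off drug in A375, and at 546 and 248 CPM in 451Lu. Of 18 markers of other cell types 12 were in the table, and their summed level ran from 44.7 to 63.2 CPM in A375 and from 162 to 188 CPM in 451Lu. The leukocyte marker PTPRC was at 0 in both 451Lu groups, and the epithelial marker EPCAM was at 0 in 3 of the 4 groups. The epithelial keratin gene KRT18 rose in both lines, from 18.7 and 16.5 to 44.6 and 50.9 CPM in A375 and from 19.6 and 20.3 to 53.6 and 49.3 CPM in 451Lu, and KRT8 rose from means of 2.98 to 7.45 and of 1.67 to 4.35 CPM. Behind the narrow range of the sum in 451Lu, the stromal marker LUM fell from 146 to 6.08 CPM while the endothelial marker PECAM1 went from 0 to 118 CPM. DCN, another stromal marker, went against LUM in 451Lu, from 0.0921 to 4.20 CPM (3 to 94 counts). The part of these genes in the results was not tested.

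Over all genes, the end state changes of the lines differed widely. The difference passed the test in 9616 of 15481 genes (62.1%; edgeR quasi-likelihood test, Benjamini-Hochberg adjusted p under 0.05), of which 4776 (30.9%) were higher in A375 and 4840 (31.3%) lower. A positive difference means that the change in A375 lay above that in 451Lu. The difference was at least 2-fold in 4960 genes (32%). Taken line by line, 10286 genes (66.4%) changed in A375 (35% up, 31.4% down), 3592 of them (23.2%) at least 2-fold. In 451Lu 10681 (69%) changed (35.7% up, 33.3% down), 4862 of them (31.4%) at least 2-fold, so large counts are the background of every list below. The median size of the difference was 0.80 on the log2 scale, against 0.53 for the A375 change and 0.65 for the 451Lu change. Against a fold change of 1.5 the difference passed in 5664 genes. With the 451Lu libraries of 72 h in place of those of 120 h it passed in 8869 genes, and 7942 of the 9616 genes passed with the same sign.

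Shared changes were more common than opposite ones. Both lines rose in 2579 genes (16.7% of genes tested; 47.6% of those that rose in A375 and 46.6% of those that rose in 451Lu). Both lines fell in 2028 genes (13.1%; 41.7% and 39.4%). A375 rose while 451Lu fell in 1616 genes (10.4%; 29.8% of the A375 rises and 31.4% of the 451Lu falls), and the reverse was found in 1258 genes (8.13%; 25.9% of the A375 falls and 22.7% of the 451Lu rises). Among genes that changed in both lines 61.6% went the same way. A shared direction was often not a shared size: the line difference passed the test in 1518 of the 2579 joint rises (9.81% of genes tested), with the larger rise in 451Lu in 1028 and in A375 in 490. Of the 2028 joint falls it passed in 1150 (7.43%), larger in 451Lu in 750 and in A375 in 400. With at least 2-fold change required in each line, the counts were 869 up in both (5.61%), 463 down in both (2.99%), 90 up in A375 and down in 451Lu (0.581%), and 264 the reverse (1.71%). Tested against a 1.5-fold change in each line, the 4 counts were 1082, 588, 191 and 271. Across the 15481 genes the 2 changes had Pearson r = 0.379 and Spearman rho = 0.239, a description over genes of the same libraries. The lines share no library.

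**Figure D1:**
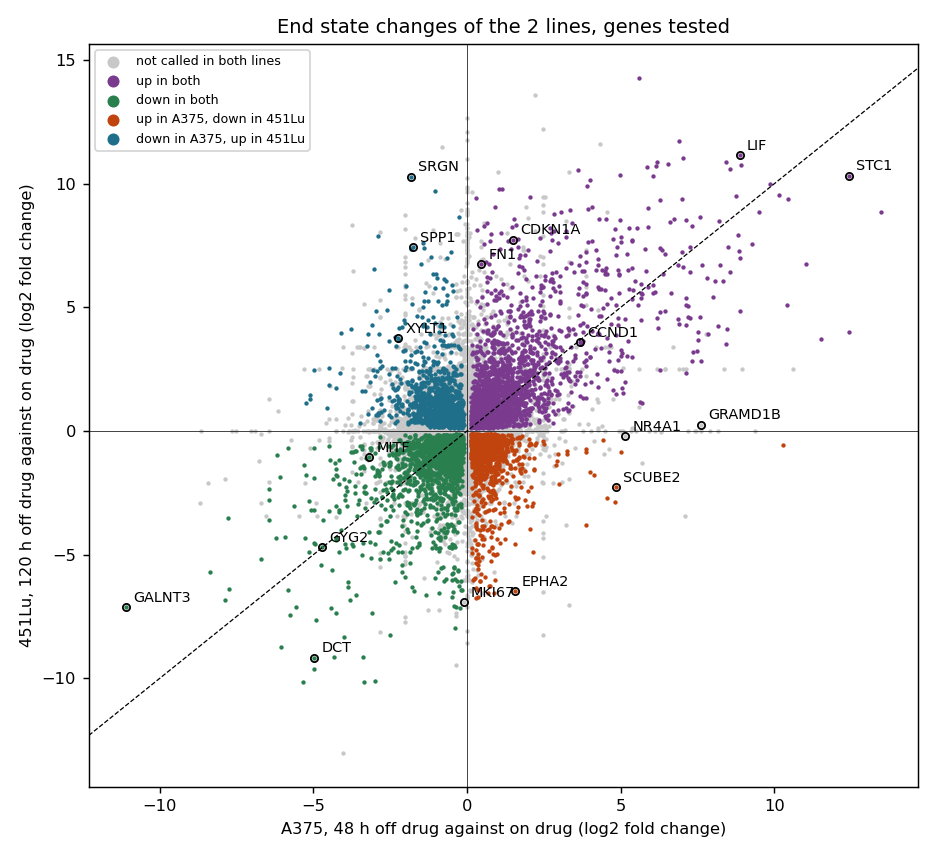
Log2 change at 48 h in A375 (x axis) against log2 change at 120 h in 451Lu (y axis), 1 point per gene tested, coloured by whether both lines changed and in which direction. Named genes are labelled, and genes with 3 or fewer counts in a group are drawn at fitted values that depend on the prior count. CCND1 and GYG2 lie on the diagonal, while MKI67, FN1 and CDKN1A lie far from it.

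The cell division genes separated the end states most. All 28 genes of G2 and mitosis fell in 451Lu, whereas in A375 15 rose and 8 fell, and the line difference passed the test in 28 of 28, all higher in A375 (62.1% of all genes passed it in either direction). The median change was 0.24 in A375 and -5.86 in 451Lu, with a median difference of 5.68 on the log2 scale, against -0.05 over all genes. MKI67 (ENSG00000148773, chromosome 10, 128096659 to 128126385), the gene of the proliferation antigen Ki-67, stood at 386 and 386 CPM in A375 on drug and at 366 and 351 CPM at 48 h. In 451Lu it stood at 458 and 448 CPM on drug and at 3.60 and 3.86 CPM at 120 h. The 451Lu libraries at 120 h were far below the other 6, which lay within a narrow band, and the difference was 6.82 ± 0.12 (SE; edgeR adjusted p = 1.13e-23). The 451Lu mean was 437 CPM at 24 h and 62.3 CPM at 72 h.

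Kinases and cyclins of mitotic entry followed the same course. CDK1, the kinase that starts mitosis, went from 112 and 109 to 176 and 184 CPM in A375, and from 99.0 and 90.0 to 1.37 and 1.06 CPM in 451Lu, a 76.4-fold fall. Its partner cyclin gene CCNB1 went from 128 and 122 to 179 and 188 CPM in A375 and from 118 and 115 to 5.66 and 5.70 CPM in 451Lu. AURKB, a kinase of chromosome segregation, rose 1.84-fold in A375, from 32.7 and 31.3 to 52.9 and 64.9 CPM. In 451Lu it fell 94.7-fold, from 80.1 and 76.6 to 1.11 and 0.483 CPM, and its difference of 7.44 ± 0.22 was the largest of the list. The exceptions to a rise or a flat level in A375 were 8 genes that fell there too, among them FOXM1, a transcription factor of mitotic genes, which fell 1.90-fold in A375 and 94.3-fold in 451Lu. BIRC5, the gene of survivin, fell 1.38-fold and 91.6-fold. CKAP2L, a spindle gene outside the list, rose 3.36-fold in A375 (37.2 and 39.2 to 131 and 125 CPM) and fell 3.21-fold in 451Lu (70.6 and 66.2 to 21.7 and 20.8 CPM).

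DNA replication genes went the same way with smaller differences. Of 31 S phase genes 30 fell in 451Lu and 0 rose, while 11 rose and 14 fell in A375, and all 31 line differences passed, higher in A375. The median was -0.09 in A375 and -2.63 in 451Lu, and the median difference 2.94. MCM4, a subunit of the replicative helicase, was at 337 and 346 CPM on drug and 327 and 341 CPM off drug in A375, and at 527 and 526 against 66.1 and 65.9 CPM in 451Lu. RFC3, a subunit of the clamp loader, rose 1.73-fold in A375 and fell 14.4-fold in 451Lu, a difference of 4.64 ± 0.13. CCNE1, the gene of cyclin E1, was the member that did not fall in 451Lu (log2 change 0.01), and it rose by 0.54 in A375. Against a fold change of 1.5 the A375 counts of both lists shrank, to 8 up and 1 down in mitosis and 2 up and 4 down in S phase.

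The lines already differed in many of these genes on drug, by less. There 2 of the 28 mitosis genes were higher and 17 lower in A375, and 8 of the 31 S phase genes were higher and 19 lower. The median line difference of the mitosis list, A375 minus 451Lu, was -0.43 on drug and 5.36 at the end, and that of the S phase list -0.43 and 2.34. With 451Lu at 72 h the median differences were 2.75 and 1.26, those of MKI67, CCNB1, AURKB and RFC3 were 2.75, 3.00, 4.23 and 2.61, and they were still higher in A375 in 28 of 28 and 30 of 31 genes. Fewer dividing cells and less RNA of these genes per cell cannot be told apart in bulk RNA, here or in the results that follow.

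**Figure D2:**
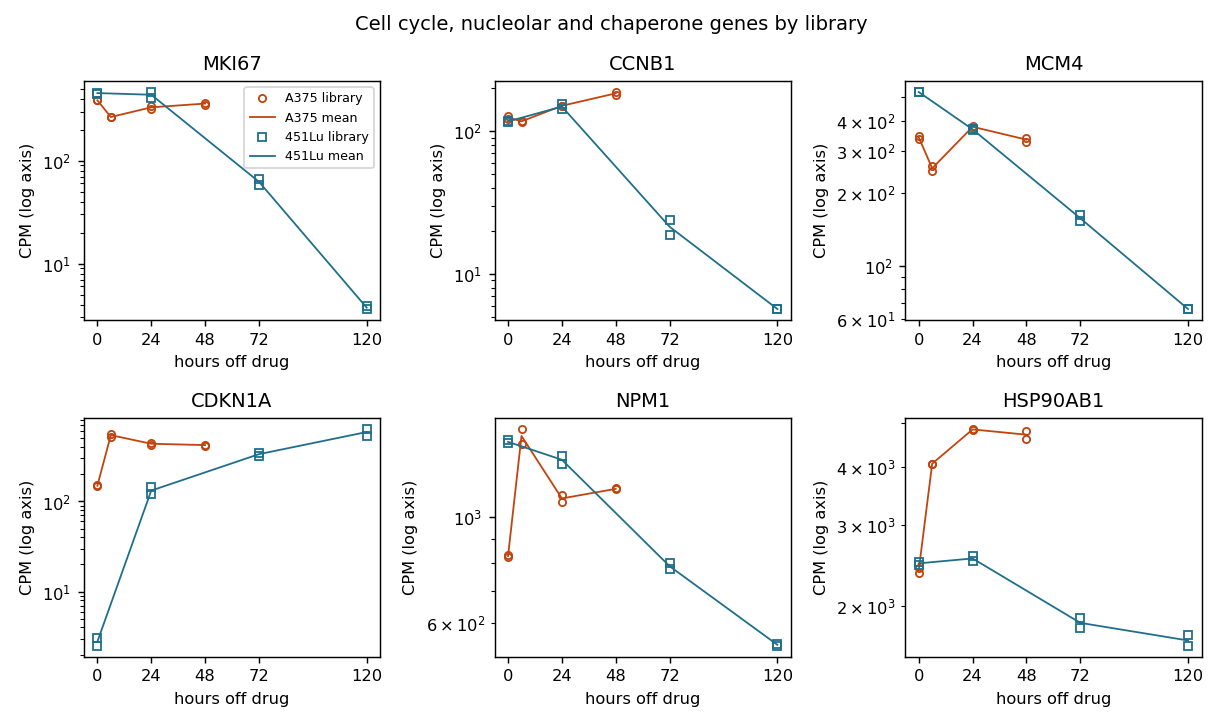
Level in CPM on a log axis against hours off drug for 6 genes of proliferation, growth and cell cycle arrest, with 1 point per library and lines through the means of 2 libraries. In 451Lu MKI67, CCNB1 and MCM4 decline from 24 h to 120 h, while in A375 MKI67 and MCM4 end near their level on drug and CCNB1 ends above it.

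The promoters of the mitosis genes share short elements, which are shown because the list fell as a whole in 451Lu. RefSeq promoters (GRCh38.p14, 250 bases before to 50 after the start) were matched by symbol for 10343 of 15462 symbols tested, and both strands were searched. The cell cycle homology region, CHR, spelled TTTGAA, was found in 14 of 22 mitosis promoters (63.6%), in 1 of 26 of the S phase list (3.85%) and in 1004 of 10343 of all (9.71%). The CCAAT box, spelled CCAAT, was found in 17 of the 22 (77.3%), in 16 of the 26 (61.5%) and in 36.5% of all. Both elements were looked up after the values were known, and a match is only a match of letters. The 200 bases before the RefSeq start follow for 4 members, 5′ to 3′ on the gene's strand with TTTGAA or its reverse complement in capitals: MKI67 (chr10:128126424-128126623, minus strand), TOP2A (chr17:40417897-40418096, minus strand), PLK1 (chr16:23678689-23678888, plus strand) and CCNB1 (chr5:69166950-69167149, plus strand).
MKI67: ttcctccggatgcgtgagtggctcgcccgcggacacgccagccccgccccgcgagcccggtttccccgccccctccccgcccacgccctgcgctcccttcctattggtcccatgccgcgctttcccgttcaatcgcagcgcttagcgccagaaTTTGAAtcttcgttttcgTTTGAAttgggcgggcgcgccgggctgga
TOP2A: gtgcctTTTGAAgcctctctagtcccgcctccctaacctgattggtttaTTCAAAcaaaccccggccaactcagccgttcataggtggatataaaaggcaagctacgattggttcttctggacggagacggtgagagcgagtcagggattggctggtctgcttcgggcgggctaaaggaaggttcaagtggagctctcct
PLK1: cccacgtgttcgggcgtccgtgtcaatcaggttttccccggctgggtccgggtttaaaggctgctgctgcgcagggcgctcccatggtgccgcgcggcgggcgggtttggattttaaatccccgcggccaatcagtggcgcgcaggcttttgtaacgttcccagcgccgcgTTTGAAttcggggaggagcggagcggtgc
CCNB1: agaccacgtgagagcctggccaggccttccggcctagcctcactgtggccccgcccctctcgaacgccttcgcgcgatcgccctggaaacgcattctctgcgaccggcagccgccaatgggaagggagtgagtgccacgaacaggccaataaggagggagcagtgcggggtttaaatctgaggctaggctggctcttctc
MKI67 and TOP2A held 2 matches each and PLK1 held 1, close to the start in MKI67 and PLK1. CCNB1 held none of these letters in the stretch shown. The fall in 451Lu was 20.5-fold for CCNB1, 80.9-fold for TOP2A and 65.6-fold for PLK1, and a link to the letters was not tested.

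Among cell cycle inhibitors CDKN1A rose in both lines and far more in 451Lu. CDKN1A (ENSG00000124762, chromosome 6, 36676460 to 36687339), which encodes the inhibitor p21, stood at 148 and 152 CPM in A375 on drug and rose 2.82-fold to 417 and 428 CPM. In 451Lu it stood at 3.07 and 2.50 CPM on drug and rose 213-fold to 644 and 536 CPM. The groups did not overlap, and the difference was -6.24 ± 0.15 (edgeR adjusted p = 1.73e-21). On drug A375 lay above 451Lu by 5.76 on the log2 scale, and at the end the line difference was -0.48, so the lines started apart and ended close. Some other inhibitors of cyclin-dependent kinases also went 1 way in both lines: CDKN2A rose 3.41-fold and 3.44-fold, and CDKN2C fell 2.34-fold and 1.95-fold. CDKN2B rose in 451Lu alone, 33.2-fold from 139 to 3187 counts, and had 0 and 1 counts in A375 on and off drug. GADD45A, a stress-induced growth arrest gene, rose 5.25-fold in A375 and stood at 34.9 and 35.1 CPM on drug and 36.3 and 27.1 CPM off drug in 451Lu. ZMAT3, SESN2, FAS and MDM2, all p53 targets, fell in A375 and rose in 451Lu. AEN and BBC3, from the same list of inhibitors and p53 targets, went the reverse way, up in A375 and down in 451Lu. In that list 6 genes fell in A375 and rose in 451Lu, and 2 did the reverse. Over the list of 26 inhibitors and p53 targets 10 rose and 13 fell in A375, 15 rose and 9 fell in 451Lu, and the difference was higher in 10 and lower in 9. The median difference of -0.10 was 0.09 with genes of 3 or fewer counts set to their bound or ratio, so the list as a whole leaned to neither line. With 451Lu at 72 h the difference was higher in 6 and lower in 11.

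Ribosome biogenesis and chaperone genes moved apart too. Of 23 ribosome biogenesis genes 20 rose and 2 fell in A375, whereas 0 rose and 22 fell in 451Lu, and the line difference was higher in 22 and lower in 1 (POLR1A). The median change was 0.47 in A375 and -0.79 in 451Lu, and 19 of the 23 went in opposite directions. NPM1, the gene of nucleophosmin, rose from 831 and 826 to 1143 and 1149 CPM in A375 and fell from 1448 and 1428 to 543 and 537 CPM in 451Lu. FBL, which encodes the rRNA methyltransferase fibrillarin, had the largest difference of the list, 2.33 ± 0.09. Against a fold change of 1.5, 8 of the list rose in A375. Of 13 heat shock genes 12 rose and 0 fell in A375, 3 rose and 9 fell in 451Lu, and 12 line differences passed, all higher in A375, with medians of 0.85 and -0.56. HSP90AB1, a cytosolic HSP90 chaperone gene, was at 2413 and 2359 CPM on drug in A375 and at 4609 and 4802 CPM off drug. In 451Lu it was at 2454 and 2489 CPM on drug and 1635 and 1725 CPM off drug, so 2 lines that had the same level on drug ended 1.49 apart on the log2 scale. BAG3, a co-chaperone gene, rose by 1.39 and 1.33 in the 2 lines and its difference was 0.06 ± 0.10.

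**Figure D3:**
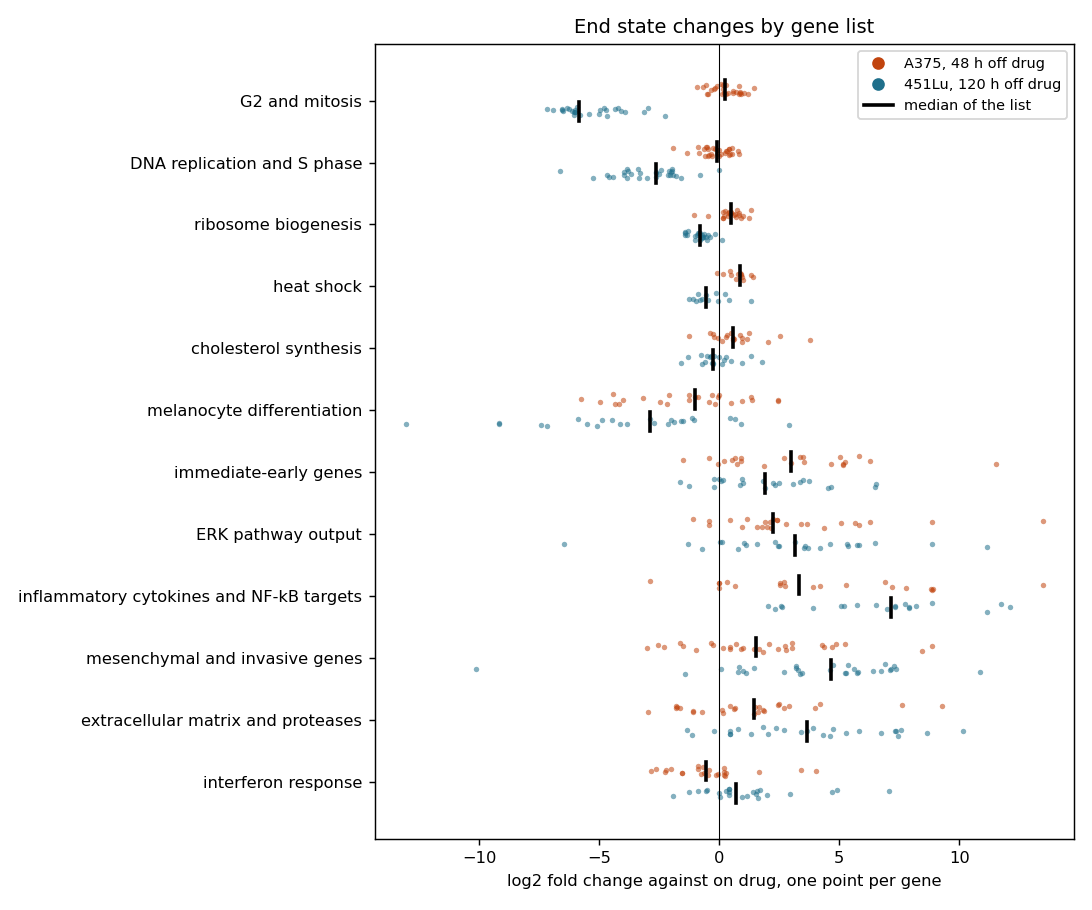
Log2 change against on drug for the members of 12 gene lists, in A375 at 48 h and 451Lu at 120 h, 1 point per gene tested with the list median as a bar. The mitosis medians are 0.24 and -5.86 and the mesenchymal medians 1.55 and 4.66; genes with 3 or fewer counts in a group are drawn at fitted values.

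Most targets of ERK rose in both lines. In the list of 25 ERK output genes A375 had 21 rises and 3 falls and 451Lu had 20 rises and 3 falls, with 17 rises in common. Another 2 rose in A375 and fell in 451Lu, 2 did the reverse, and 1, ETV5, fell in both (2.16-fold and 1.65-fold). The median change was 2.25 in A375 and 3.16 in 451Lu. Even so the line difference passed the test in 23 of the 25, in size or in direction (8 higher in A375 and 15 lower). The median difference was -0.68, and -0.37 with 451Lu at 72 h. CCND1 (ENSG00000110092, chromosome 11, 69641087 to 69654474), which encodes cyclin D1, was one of the exceptions. It rose 12.7-fold in A375, from 31.0 and 27.9 to 381 and 367 CPM, and 12-fold in 451Lu, from 532 and 540 to 6496 and 6335 CPM. The difference was 0.08 ± 0.08 with a 95% interval from -0.08 to 0.24 (edgeR adjusted p = 0.39), although 451Lu lay far above A375 in level, with a line difference of -4.18 on drug and -4.10 at the end.

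Most of the feedback inhibitors had the larger rise in 451Lu. DUSP6 (ENSG00000139318, chromosome 12, 89347232 to 89353271), which encodes an ERK phosphatase, stood at 27.3 and 28.3 CPM in A375 on drug and rose 5.32-fold to 151 and 145 CPM. In 451Lu it stood at 24.2 and 21.2 CPM on drug and rose 55.6-fold to 1304 and 1213 CPM. The lines were close on drug and far apart off drug, with a difference of -3.38 ± 0.12 (edgeR adjusted p = 1.67e-18). SPRY1, SPRY2 and SPRY4, inhibitors of receptor signalling, rose in both lines and more in 451Lu, by differences of -2.28, -1.04 and -0.74. SPRED1 and SPRED2, which hold back RAS, fell in A375 by 0.45 and 0.42 and rose in 451Lu by 1.10 and 0.78. DUSP4 and DUSP5 rose by similar amounts, with differences of -0.30 ± 0.08 and 0.31 ± 0.17, the second not past the test.

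The 8 ERK targets with a higher change in A375 included EGR1, MYC, FOSL1 and EPHA2. EGR1, an immediate-early factor, rose 78.2-fold in A375, from 5.36 and 5.51 to 419 and 432 CPM, and 5.55-fold in 451Lu, from 80.4 and 87.1 to 495 and 435 CPM. Its off-drug levels thus lay close together and its on-drug levels did not. MYC, a driver of growth and ribosome synthesis, rose 3.45-fold in A375 (89.1 and 84.5 to 285 and 314 CPM) and fell 2.50-fold in 451Lu (173 and 183 to 75.1 and 67.3 CPM), a difference of 3.11 ± 0.09. FOSL1, the gene of the AP-1 subunit FRA1, rose 10.7-fold in A375 and 2.04-fold in 451Lu. EPHA2 (ENSG00000142627, chromosome 1, 16124337 to 16156087), an ephrin receptor tyrosine kinase, rose from 16.5 and 15.8 to 46.2 and 48.6 CPM in A375, while in 451Lu it went from 5.18 and 4.64 CPM to a single count (1), which is a 108-fold ratio with a counting interval from 19 to 4279. Its difference passed the test, with a fitted size that depends on the prior count at 120 h, and was 3.62 with 451Lu at 72 h.

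Immediate-early genes, which respond within minutes to signalling, rose in 19 of 23 cases and fell in 2 in A375, and rose in 14 and fell in 2 in 451Lu, with 10 differences higher and 7 lower. The median difference was 0.62, or 0.52 with low-count genes at their bound. NR4A1 (ENSG00000123358, chromosome 12, 52022832 to 52059507), an orphan nuclear receptor gene, rose 35.2-fold in A375, from 16.7 and 15.5 to 527 and 610 CPM. In 451Lu it stood at 32.2 and 32.0 CPM on drug and 25.2 and 30.8 CPM off drug, a change that did not pass the test. Its relative NR4A3 rose 3.68-fold in A375 and fell 3.11-fold in 451Lu, a difference of 3.51 that was 2.25 with 451Lu at 72 h, whereas NR4A2 rose in both, by 5.14 and 4.52. ARC, a neuronal activity gene, had 0 counts in A375 on drug and was at least 320-fold higher at 48 h, against a 13.3-fold rise in 451Lu. AP-1 factors rose in 7 of 10 cases and fell in 3 in A375, and rose in 9 with 0 falling in 451Lu. JUN and JUND fell in A375 and rose in 451Lu, with differences of -2.34 ± 0.16 and -1.78 ± 0.17, while FOSB and FOSL2 rose in both and their differences did not pass. Of 11 genes of the RAF, MEK and ERK kinases and RAS 4 rose and 2 fell in A375, 4 rose and 6 fell in 451Lu, and 3 differences were higher and 3 lower. With 451Lu at 72 h 5 of these genes rose and 1 fell in that line (median 0.16, against -0.16 at 120 h), and tested against a 1.5-fold change 2 rose and 0 fell. BRAF stood at 4454 and 4358 CPM in A375 on drug against 72.3 and 72.7 CPM in 451Lu, a line difference of 5.93, and rose 1.17-fold and 2.17-fold. MAP2K1, which encodes MEK1, rose by 1.64 and 1.59, a difference of 0.05 ± 0.08.

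**Figure D4:**
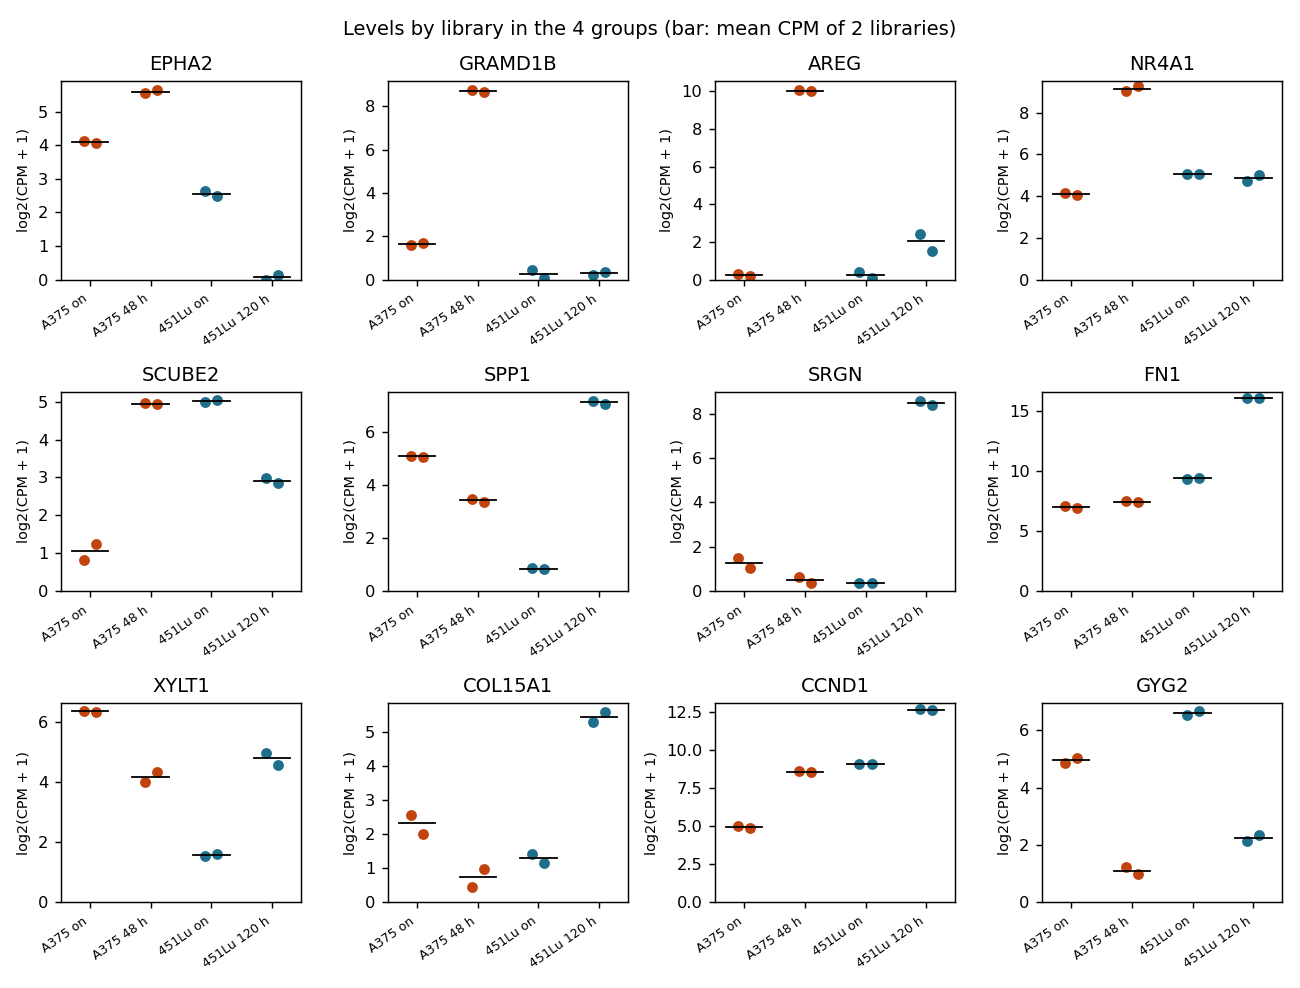
Level as log2(CPM + 1) in each of the 8 libraries for 12 genes, with the mean of 2 libraries as a bar. EPHA2, GRAMD1B, AREG, NR4A1 and SCUBE2 are highest in A375 off drug or fall in 451Lu, SPP1, SRGN, FN1, XYLT1 and COL15A1 rise in 451Lu, and CCND1 and GYG2 change alike in both.

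Pigment cell genes fell in both lines and further in 451Lu. Of 25 melanocyte genes 15 fell and 4 rose in A375, 21 fell and 4 rose in 451Lu, and 14 fell in both. The median change was -0.995 in A375 and -2.90 in 451Lu, and the line difference was higher in A375 in 15 and lower in 5. The median difference of 1.73 was 0.99 with low-count genes at their bound. MLANA, a melanosome antigen gene, fell 21.6-fold in A375 (259 and 268 to 10.9 and 13.5 CPM) and 144-fold in 451Lu (627 and 618 to 3.60 and 5.12 CPM). PMEL, which forms the fibrils of the melanosome, fell 5.54-fold from 194 and 191 CPM in A375 and 21.9-fold from 8977 and 9541 CPM in 451Lu. The pigment enzyme gene DCT fell 31.4-fold in A375, from 2921 and 3007 to 89.8 and 99.1 CPM. In 451Lu DCT went from 130 and 144 CPM to 0.172 and 0.290 CPM, 5 counts in all, and the difference of 4.20 ± 0.40 was 1.77 with 451Lu at 72 h.

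MITF (ENSG00000187098, chromosome 3, 69739435 to 69968337), the transcription factor that drives these genes, went the other way in size. It fell 9.07-fold in A375, from 388 and 379 to 42.1 and 42.4 CPM, and 2.08-fold in 451Lu, from 622 and 613 to 285 and 309 CPM. The difference was -2.12 ± 0.09 (edgeR adjusted p = 8.89e-17), so MITF fell less in the line with the deeper falls of MLANA, PMEL and DCT. Other members outside the general fall were CDK2, a cyclin-dependent kinase gene, which rose 1.90-fold in A375 and fell 6.63-fold in 451Lu, and BCL2A1, a survival gene, which rose 2.53-fold and 7.47-fold. CDK2 lies within the span of PMEL, so counts of the pair may be shared. EDNRB, the endothelin receptor gene of the lineage, rose 1.40-fold in A375 and fell 3.05-fold in 451Lu.

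The M-box, the element bound by MITF and spelled TCATGTG, was found in 6 of 19 melanocyte promoters (31.6%) and in 1.89% of all. That list was made of pigment cell genes, so a high share there follows from how it was built. Over the classes the share was 3.52% of the joint falls and 1.47% of the joint rises. It was 1.19% of genes that rose in A375 and fell in 451Lu and 2.29% of the reverse class. The M-box contains the shorter E-box core, which was not counted. Stretches of 200 bases before the RefSeq start are given for TYRP1 (chr9:12693185-12693384, plus strand) and SLC24A5 (chr15:48120790-48120989, plus strand), a pigment enzyme and a melanosome ion exchanger, with the M-box or its reverse complement in capitals. TYRP1 and SLC24A5 were picked from the melanocyte genes that fell in both lines and held the M-box, by the size of the fall. Their matches and falls were thus set by the choice, and a link between the 2 was not tested.
TYRP1: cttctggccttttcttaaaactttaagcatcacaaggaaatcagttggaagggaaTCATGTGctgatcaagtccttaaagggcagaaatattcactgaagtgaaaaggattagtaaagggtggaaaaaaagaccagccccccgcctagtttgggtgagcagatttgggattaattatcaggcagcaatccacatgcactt
SLC24A5: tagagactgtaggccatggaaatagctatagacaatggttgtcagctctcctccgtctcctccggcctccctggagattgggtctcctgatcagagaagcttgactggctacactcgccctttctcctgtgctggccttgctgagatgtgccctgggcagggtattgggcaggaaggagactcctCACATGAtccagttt
TYRP1 fell 54.2-fold in A375, to 4 counts, and had 0 counts in 451Lu at 120 h against 53 on drug, at least 12.2-fold lower. SLC24A5 fell 18.2-fold in A375 and 29.4-fold in 451Lu, a difference of 0.70 ± 0.32 that did not pass the test.

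Mesenchymal and matrix genes rose in both lines and more in 451Lu. Of 30 mesenchymal and invasive genes tested (32 listed) 20 rose and 8 fell in A375, 26 rose and 2 fell in 451Lu, and the difference was higher in 3 and lower in 23. The medians were 1.55 and 4.66, and the median difference -2.35 (-2.22 with low-count genes at their bound). Of 27 matrix and protease genes (32 listed) 17 rose and 8 fell in A375, 21 rose and 2 fell in 451Lu, and the difference was higher in 1, SPARC, and lower in 17. Their medians were 1.43 and 3.66, with a median difference of -2.06 (-2.24 at the bound). On drug the median line difference of the 2 lists was 0.64 and 0.49, and at the end it was -1.44 and -1.77.

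FN1 (ENSG00000115414, chromosome 2, 215360440 to 215436172), which encodes fibronectin, stood at 132 and 120 CPM in A375 on drug and at 180 and 168 CPM at 48 h, a 1.38-fold rise. In 451Lu it stood at 644 and 707 CPM on drug and rose 108-fold to 72508 and 72891 CPM at 120 h. The off-drug 451Lu libraries were far above the other 6, and the difference was -6.29 ± 0.13 (edgeR adjusted p = 3.56e-23). LOXL2, a collagen cross-linking enzyme gene, rose 2.69-fold in A375 and 165-fold in 451Lu, from 1.63 and 1.51 to 276 and 245 CPM. CD44, the hyaluronan receptor gene, fell 1.22-fold in A375 (1045 and 1009 to 829 and 859 CPM) and rose 10.9-fold in 451Lu (186 and 191 to 2098 and 1995 CPM). ZEB2, MMP14, THBS1, CDH2 and LAMC1 likewise fell in A375 and rose in 451Lu. ZEB2, a transcription factor of melanocytes and of mesenchymal transition, went from 152 and 147 to 29.1 and 31.0 CPM in A375 and from 172 and 164 to 331 and 341 CPM in 451Lu.

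Other invasive genes had steep rises in both lines. ITGA3, an integrin gene, rose by 4.28 and 5.76, NT5E, which encodes CD73, by 4.86 and 7.12, and TIMP1, an inhibitor of matrix proteases, 18.2-fold and 158-fold. MMP1, an interstitial collagenase gene, went from 3 counts in A375 on drug to 64.0 and 58.9 CPM, a ratio of 690.4 (counting interval 236 to 3352), and rose 191-fold in 451Lu to 4185 and 2923 CPM. INHBA, an activin subunit gene, rose 463-fold in A375 and 156-fold in 451Lu. The differences of MMP1 and INHBA did not pass the test. AXL (ENSG00000167601, chromosome 19, 41219203 to 41261766), whose receptor kinase marks invasive melanoma cells, rose 37.2-fold in A375, from 0.111 and 0.577 to 12 and 13 CPM, and 143-fold in 451Lu, from 0.204 and 0.174 to 27.2 and 29.5 CPM. Its difference of -1.94 ± 0.82 passed the test (edgeR adjusted p = 0.0417) but was -0.46 without A375 on-drug replicate 2, and the call was also lost without A375 48 h replicate 1 (-1.89), without 451Lu on-drug replicate 1 (-2.04) or 2 (-1.82), against a 1.5-fold change, and with 451Lu at 72 h (-0.97).

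Cytokine genes rose steeply in both lines. Of 20 inflammatory cytokines and NF-kB targets tested (25 listed) 15 rose and 1 fell in A375, and 19 rose and 0 fell in 451Lu. The median change was 3.32 in A375 and 7.14 in 451Lu, or 3.97 and 6.52 with low-count genes at their bound or ratio and those too low for a fold left out. The difference was higher in 3 and lower in 6, with a median of -1.81. It was -1.29 with low-count genes at their bound and -0.26 over the 10 members with more than 3 counts in every group, -0.96 without A375 on-drug replicate 2 and -0.19 with 451Lu at 72 h, where 6 were higher and 3 lower. DESeq2 found 10 lower at 120 h. LIF (ENSG00000128342, chromosome 22, 30240447 to 30246851), of the interleukin 6 family, rose 468-fold in A375, from 4.64 and 4.29 to 2034 and 2168 CPM, and 2282-fold in 451Lu, from 2.52 and 2.84 to 6902 and 5441 CPM. Its difference was -2.29 ± 0.42, and -1.16 with 451Lu at 72 h. CXCL8, a neutrophil attractant, rose 473-fold in A375 to 1563 and 1531 CPM and 126-fold in 451Lu to 1203 and 703 CPM. Its difference was 1.91 ± 0.38, and 3.47 with 451Lu at 72 h.

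Other members of the list had their rise in 451Lu alone or mostly there. ICAM1, an adhesion receptor induced by NF-kB, was at 143 and 137 CPM on drug and 169 and 175 CPM off drug in A375, a change that did not pass the test, and in 451Lu it rose 36.6-fold from 133 and 142 to 5773 and 4314 CPM. Its difference was -4.90 ± 0.20, and -2.72 with 451Lu at 72 h. The chemokine gene CCL2 had 0 counts in A375 in both groups and in 451Lu on drug, and 936 counts at 120 h, at least 452-fold higher. IL6 went from 13 counts to 1 in A375 and from 0 to 50 counts in 451Lu, at least 24.2-fold higher. IL1B rose 3380-fold in 451Lu and went from 1 to 107 counts in A375. Among EGF receptor ligands AREG had its larger rise in A375. AREG (ENSG00000109321, chromosome 4, 74445134 to 74455009) rose 5542-fold in A375, from 0.221 and 0.128 to 1055 and 1026 CPM, and in 451Lu it rose 16.1-fold, from 0.341 and 0.0581 to 4.37 and 1.84 CPM. The AREG difference of 8.43 ± 1.38 lost its call without 451Lu on-drug replicate 1 (6.89) and was 13.21 with 451Lu at 72 h. HBEGF rose in both, 4.31-fold and 14.2-fold, and EGFR itself fell 1.95-fold in A375 and rose 9.06-fold in 451Lu to 2.06 and 0.869 CPM. The list of 12 ligands and receptors had 5 up and 4 down in A375, 10 up and 1 down in 451Lu, and 2 differences higher and 6 lower, with a median of -1.74. With 451Lu at 72 h 6 were up and 1 down in that line, 4 differences were lower and the median was -0.91.

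Interferon and antigen presentation genes leaned to 451Lu. Of 24 interferon response genes 3 rose and 10 fell in A375, while 16 rose and 4 fell in 451Lu, with 3 differences higher and 13 lower and a median difference of -1.16 (-0.98 with low-count genes at their bound). IRF1, a factor of interferon gamma signalling, was at 6.57 and 6.92 CPM on drug and 8.37 and 6.90 CPM off drug in A375, and rose 7.70-fold in 451Lu from 4.15 and 4.35 to 34.2 and 31.5 CPM. IFIT2, an antiviral effector gene, fell 4.84-fold in A375 and rose 1.32-fold in 451Lu, and its difference of -2.68 was -4.15 with 451Lu at 72 h. ISG20 and IRF7 went against the list, with rises of 16.2-fold and 10.5-fold in A375 and of 3.97-fold and 2.97-fold in 451Lu. Of 18 genes of MHC class I presentation 10 rose and 2 fell in A375, 11 rose and 4 fell in 451Lu, and 3 differences were higher and 12 lower. HLA-B, HLA-C, HLA-E and HLA-F rose in both lines and more in 451Lu, HLA-B by 1.53 and 2.54. TAP1 and TAP2, which carry peptides into the ER, rose in A375 and fell in 451Lu. With 451Lu at 72 h 6 differences of this list were lower, the median went from -0.43 to -0.05, and that of HLA-E, -0.998 at 120 h, was -0.15 and did not pass. Counts of HLA genes may be shared among near-identical genes, and HLA-B lies almost wholly within the span of HLA-C.

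Metabolic lists were mixed. Of 20 cholesterol synthesis genes 14 rose and 3 fell in A375, 6 rose and 11 fell in 451Lu, and 15 differences were higher and 1, that of SQLE, lower. The 451Lu median of -0.26 was 0.21 at 72 h, with 10 up and 5 down, so the direction in that line depended on the time. The median line difference of 0.78 was then 0.25, with 10 higher and 2 lower. INSIG1, a sterol sensor gene, rose 13.8-fold in A375 and 2.52-fold in 451Lu, and DHCR7, a late enzyme gene of the pathway, rose 1.95-fold in A375 and fell 2.44-fold in 451Lu. Glycolysis genes rose in both lines, with 19 of 21 up and 1 down in A375 and 17 up and 2 down in 451Lu. The medians were 0.57 and 0.63 and the median difference was 0.03. Gene by gene the line difference passed in 19 of the 21 (90.5%, against 62.1% of all genes), 10 higher and 9 lower. SLC2A1, the glucose transporter gene GLUT1, rose 1.5-fold in A375 and 6.43-fold in 451Lu, and PFKFB4, a regulator of glycolytic flux, 9.30-fold and 1.93-fold. Of 24 lysosome genes 8 rose and 12 fell in A375, 5 rose and 17 fell in 451Lu, and 13 differences were higher and 6 lower. NPC2, a cholesterol carrier of the lysosome, rose 4-fold in A375 and fell 2.16-fold in 451Lu. In the 22 genes of integrated and ER stress 10 rose and 10 fell in A375, and 12 rose and 10 fell in 451Lu. The median difference of that list was -0.12, with 9 higher and 10 lower, and it was 0.28 with 451Lu at 72 h, with 12 higher and 6 lower. CHAC1, a glutathione-degrading enzyme gene of that response, fell 2.07-fold in A375 and rose 20.5-fold in 451Lu, from 5 to 75 counts. DDIT3, which encodes CHOP, instead rose 2.01-fold and fell 1.56-fold.

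Mitochondrially encoded genes fell in A375 in 13 of 13 cases, with a median of -0.66. In 451Lu 3 rose and 4 fell, with a median of -0.11, and 10 differences were lower and 0 higher. Their share of all counts was 5.53% and 4.81% in A375 on drug and 2.60% and 3.28% at 48 h, and 6.11% and 5.51% against 4.35% and 5.08% in 451Lu. The 451Lu median was 0.04 without on-drug replicate 1, where 3 rose and 2 fell, and below 0 under every other alternative run. At 72 h 7 fell and 0 rose. Among 21 apoptosis regulators 10 rose and 9 fell in A375, 14 rose and 5 fell in 451Lu, and 4 differences were higher and 11 lower. MCL1, a survival gene, rose in both, by 3.50 and 3.09. BMF, which promotes cell death, fell 5.78-fold in A375 and rose 2.63-fold in 451Lu, and CFLAR, an inhibitor of caspase 8, fell 1.27-fold and rose 4.75-fold. PMAIP1, which encodes NOXA, stood at 20.4 and 22.2 CPM on drug and 21.5 and 20.7 CPM off drug in A375, and rose 2.85-fold in 451Lu. Its difference of -1.53 was -2.83 with 451Lu at 72 h.

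The 20 genes with the widest fitted difference were mostly ones that 1 of the lines did not express in 1 of the states: 14 of them had 3 or fewer counts in a group, so their fitted difference depends on the prior count. Counts and bounds are given for these, and a fitted value only where leaving out a library ended the call. PTPN22, a tyrosine phosphatase gene best known from lymphocytes, was at 0 counts on drug in A375 and reached 11.6 and 12.6 CPM after 48 h of withdrawal, at least 136-fold more, and in 451Lu it fell 1.49-fold from 17 and 15 CPM. GRAMD1B, which encodes a sterol transfer protein of the ER, rose 195-fold in A375, from 1.99 and 2.24 to 425 and 402 CPM, and was at or below 0.341 CPM in all 4 libraries of 451Lu. SCML4, OCA2 and the lincRNA AC104655.3 had 0 to 3 counts per group in A375 and fell 131-fold, 34.1-fold and 13.8-fold in 451Lu, so their differences describe 451Lu. The call for OCA2, a melanosome transporter gene, was lost without A375 48 h replicate 2 (fitted value 5.10). CSMD1, a large membrane protein gene, fell 1.32-fold in A375 and went from 77 counts to 0 in 451Lu, at least 17.7-fold lower.

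At the other end, SRGN (ENSG00000122862, chromosome 10, 69088106 to 69104811), the gene of the granule proteoglycan serglycin, fell 3.57-fold in A375, from 1.77 and 1.03 to 0.529 and 0.259 CPM. In 451Lu it rose 1239-fold, from 0.272 and 0.290 to 383 and 339 CPM, a difference of -12.11 ± 0.59 (edgeR adjusted p = 1.45e-15). SPP1, which encodes osteopontin, fell 3.41-fold in A375 (33.2 and 32.2 to 9.95 and 9.23 CPM) and rose 173-fold in 451Lu (0.817 and 0.755 to 143 and 131 CPM). PRSS35 rose 277-fold in 451Lu to 184 and 203 CPM and stood at 1.22 and 0.641 CPM on drug and 0.352 and 0.518 CPM off drug in A375. PECAM1, an adhesion gene of endothelium that is also among the markers of other cell types, had 0 counts in 451Lu on drug and 118 and 117 CPM after 120 h of withdrawal (at least 1253-fold higher), with 1 and 4 counts in A375. The endothelial marker VWF was at 0.343 and 0.386 CPM in the same 120 h libraries. From 0 counts on drug in 451Lu EDARADD, an adaptor of a TNF family receptor, was at least 294-fold higher, FGF1, a growth factor gene, at least 148-fold, NRCAM, a neural adhesion gene, at least 70.5-fold, and SLITRK2, another neural gene, at least 41.1-fold. TMEM178B went from 1 to 748 counts. PECAM1 had 1 count in A375 on drug, in replicate 2, and its call was lost without that library (fitted value -9.32).

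Genes with opposite changes of at least a few fold in both lines are a small group, and the rule for naming them used the values of both changes, so they are described without a further test. SCUBE2 (ENSG00000175356, chromosome 11, 9020391 to 9138114), a secreted protein gene of Hedgehog release, rose 28.6-fold in A375, from 0.774 and 1.35 to 30.2 and 29.7 CPM, and fell 4.80-fold in 451Lu, from 30.8 and 32.0 to 6.86 and 6.18 CPM. HAS2, the hyaluronan synthase gene, rose 3.87-fold to 26.7 and 26.9 CPM in A375 and fell 8.19-fold in 451Lu from 91.1 and 84.8 CPM. POU3F1, a POU transcription factor gene, rose 4.33-fold and fell 8.08-fold, SLAMF9 17.4-fold and 3.46-fold, and SH2D5 3.35-fold and 4.79-fold. The Wnt ligand gene WNT10B rose 3.19-fold and fell 6.52-fold, in 451Lu from 49 to 5 counts. In the reverse direction, XYLT1 (ENSG00000103489, chromosome 16, 17101769 to 17470881), the enzyme that starts glycosaminoglycan chains, fell 4.74-fold in A375, from 81.4 and 78.8 to 15 and 18.8 CPM, and rose 13.4-fold in 451Lu, from 1.91 and 2.03 to 30.3 and 22.4 CPM. EXTL1, a heparan sulfate glycosyltransferase gene, fell 13.7-fold and rose 17.3-fold (7 to 87 counts in 451Lu), and COL15A1, a basement membrane collagen gene, 6.04-fold and 29.8-fold. LRP2, the endocytic receptor megalin, fell 9.64-fold in A375 from 72.7 and 71.9 CPM and went from 2 to 17 counts in 451Lu. ABAT, which breaks down GABA, fell 7.71-fold and rose 5.39-fold (14 to 53 counts in 451Lu), C1QTNF1 4.68-fold and 17.8-fold and the cathepsin gene CTSO 4.28-fold and 9.28-fold. KCNJ2, a potassium channel gene, went from 10 counts to 0 in A375, at least 2.27-fold lower, and rose 5.58-fold in 451Lu.

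The genes named as the strongest shared rises were STC1, CDCP1, CD52, MMP10, AC112721.1, LIF, SLC12A8 and IL11. STC1, a secreted glycoprotein gene, rose from 0.111 and 0.385 to 1357 and 1373 CPM in A375 and from 2.38 and 3.66 to 4215 and 3658 CPM in 451Lu, and its difference of 2.11 ± 0.63 lost its call without A375 on-drug replicate 1 (1.43) and was 3.33 with 451Lu at 72 h. IL11 was at 0 counts on drug in A375 and at 107 and 112 CPM after 48 h of withdrawal (at least 1227-fold higher), and rose 463-fold in 451Lu to 142 and 128 CPM. CDCP1, a surface glycoprotein of invasive cells, rose 937-fold to 341 and 344 CPM in A375 and from 0 counts to 10.9 and 8.69 CPM in 451Lu, at least 105-fold. MMP10, a stromelysin gene, was at least 151-fold higher in A375, from 0 counts, and went from 1 to 613 counts in 451Lu. CD52, a small surface glycoprotein gene, was at least 123-fold higher in A375 and went from 1 to 678 counts in 451Lu. The membrane transporter gene SLC12A8 went from 1 to 647 counts in A375 and rose 464-fold in 451Lu. AC112721.1, a lincRNA, had 0 counts on drug in both lines and was at least 51.9-fold and 176-fold higher.

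The AP-1 site, spelled TGANTCA, was found in 117 of 1903 promoters of genes that rose in both lines (6.15%) and in 4.69% of all. It was found in 3.65% of those that rose in A375 and fell in 451Lu, in 4.81% of the reverse class and in 4.81% of the joint falls. The 200 bases before the RefSeq start are shown for MMP10 (chr11:102780629-102780828, minus strand) and IL11 (chr19:55370464-55370663, minus strand), named rises of both lines, with the match in capitals. MMP10 and IL11 were picked because their promoters held the site, so finding a match there was certain.
MMP10: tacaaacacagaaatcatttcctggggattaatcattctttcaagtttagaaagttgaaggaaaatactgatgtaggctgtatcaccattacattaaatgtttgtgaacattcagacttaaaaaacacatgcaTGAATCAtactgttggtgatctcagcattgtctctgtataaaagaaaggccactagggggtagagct
IL11: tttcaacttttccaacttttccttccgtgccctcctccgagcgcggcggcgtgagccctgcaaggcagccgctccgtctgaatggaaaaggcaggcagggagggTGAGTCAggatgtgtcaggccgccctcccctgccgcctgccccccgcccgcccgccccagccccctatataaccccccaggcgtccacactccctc
Each stretch held 1 match. Most promoters of the joint rises had no such letters in the window.

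Among the named strongest shared falls GYG2 had nearly the same fitted change in both lines. The line difference was not called for GYG2, AC009495.4, AC009495.3 or PLCH1-AS1, which does not show that their changes were equal. GYG2 (ENSG00000056998, chromosome X, 2828788 to 2882818), a glycogenin gene that primes glycogen synthesis, fell 26.3-fold in A375, from 28.2 and 31.9 to 1.32 and 0.949 CPM, and 26.2-fold in 451Lu, from 93.0 and 100.3 to 3.34 and 4.06 CPM. The fitted difference was 0.00 on the log2 scale and ran from -0.61 to 0.21 over the alternatives. No interval is given, since the standard error used here is unreliable near 0. In level 451Lu was higher on drug and at the end (line difference -1.69 both times). GALNT3, an enzyme of O-linked glycosylation, went from 21.4 and 20.6 CPM to 0 counts in A375, at least 161-fold lower, and fell 140-fold in 451Lu from 136 and 134 CPM. Here and for ESRP1 and CFAP61 a group had 3 or fewer counts, so the differences are fitted values that depend on the prior count. That of GALNT3, -3.95, lost its call with DESeq2 (-3.24), with 451Lu at 72 h (-3.11), and without A375 48 h replicate 1 (-3.98) or 2 (-3.97) or 451Lu 120 h replicate 1 (-3.47). The lincRNAs AC009495.4 and AC009495.3, which overlap each other next to GALNT3 on chromosome 2 and may share counts, had 0 counts in A375 at 48 h, at least 17.2-fold and 15.9-fold lower, and 2 and 3 counts in 451Lu at 120 h. ESRP1, which controls epithelial splicing, fell 66.8-fold in A375 and from 2000 to 3 counts in 451Lu. Its difference of 2.69 was 0.33 and not called with 451Lu at 72 h. CFAP61, a gene of motile cilia, went from 142 to 3 counts in A375 and fell 201-fold in 451Lu. Its difference of 2.74 was -1.14 without A375 48 h replicate 2, and the call was lost with no filter on low counts (2.77), against a 1.5-fold change, and without A375 on-drug replicate 1 (2.60), 451Lu on-drug replicate 1 (2.75) or 2 (2.73) and 451Lu 120 h replicate 2 (2.57). PLCH1-AS1, which lies within PLCH1 on the opposite strand so that reads of the pair may be shared, went from 13 and 348 counts to 0, at least 2.95-fold and 80.0-fold lower.

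The end states were further apart than the on-drug states. On drug 11955 genes (77.2%) differed between the lines, 5761 (37.2%) by at least 2-fold, and at the end 12461 (80.5%) differed, 7258 (46.9%) by at least 2-fold. The median size of the line difference was 0.73 on drug and 0.97 at the end on the log2 scale. The 2 sets of line differences had Pearson r = 0.736 across genes, a description over genes of 1 fit. The mitosis list went from a median of -0.43 to 5.36 and ribosome biogenesis from -0.23 to 1.01, both from below 0 to above it. The mesenchymal and matrix lists crossed the other way. Pigment genes kept their sign (-0.85 on drug and -0.59 at the end), and glycolysis stayed at -0.65 and -0.73.

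**Figure D5:**
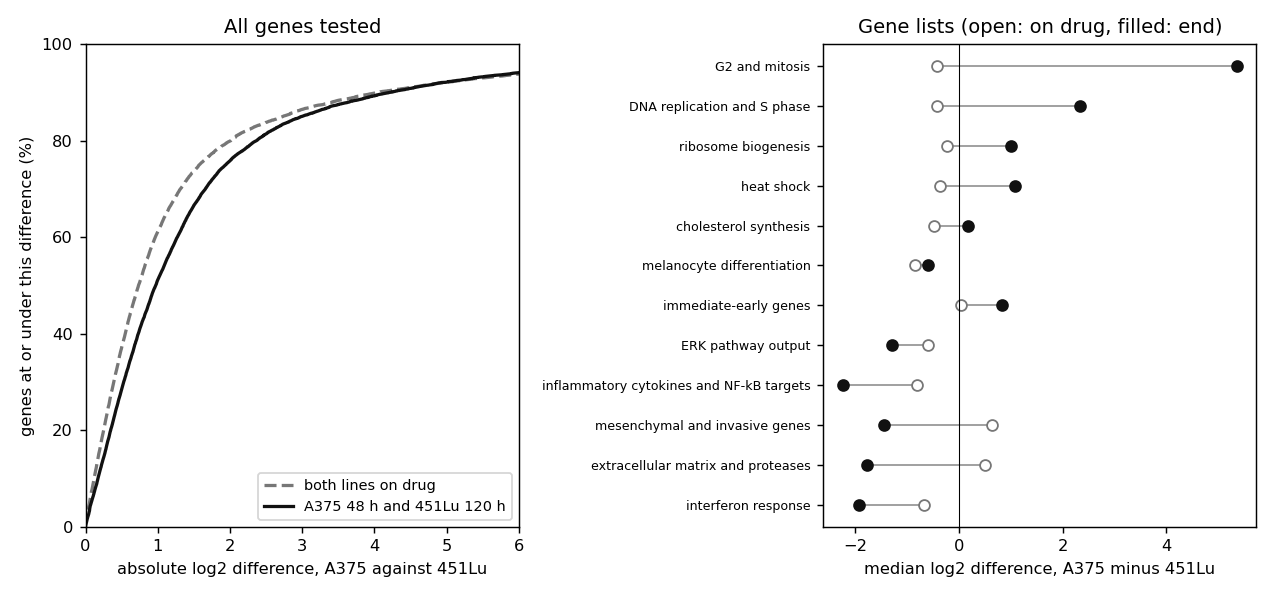
Left, cumulative share of genes tested against the absolute log2 difference between A375 and 451Lu, on drug and at the end states. Right, list medians of that difference on drug and at the end. The end state curve lies to the right of the on-drug curve, with medians of 0.97 and 0.73.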

How the data were processed

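RNA was sequenced from 16 libraries, 8 per line in 4 groups of 2, and a single table of raw read counts per gene was deposited by the authors, with Ensembl identifiers, symbols and coordinates. TopHat2 2.1.0, Bowtie 1.0.0 and the build GRCh38 are named in the submitters' processing notes; for the counter, its strand setting and the annotation release the status is "not given in the sources used here".

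Genes were kept with edgeR's filterByExpr (minimum count 10, minimum total 15), which left 15481 of 30813. TMM scaling and edgeR's quasi-likelihood F test (edgeR 4.0.16, R 4.3.3) were applied to all 16 libraries as 8 groups, which left 8 residual degrees of freedom, and p-values were Benjamini-Hochberg adjusted over all genes tested and called under 0.05. Standard errors were the absolute log2 change over the square root of F, which is unreliable where the change is near 0, most of all at low counts. Log2 values and folds come from this fit. For each gene it took the same spread in all groups, with a common coefficient of variation of 4.15% beyond counting error. The 2 libraries of a group differed unequally, with chi-squared per degree of freedom of 1.86 in A375 on drug and 3.62 at 48 h. In 451Lu it was 2.70 on drug and 6.03 at 120 h, which the p-values do not allow for. Where a group summed to 0 counts a fold is a bound against a floor of 3 counts over the group, and with 1 to 3 counts it is a ratio with a 95% Clopper-Pearson interval, which covers counting error only. The fit was also run on a single simulated draw, in which 200 of the better expressed genes differed between the lines and the others changed alike. It recovered most of the 200, and the share of its calls that were false exceeded the adjusted threshold. Far more genes were called in the data, so neither share can be carried over to them.

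Named genes had a mean of at least 10 CPM in 1 of the 4 groups and were the 10 highest and 10 lowest differences, 8 per class of shared or opposite change, the 4 lowest p of each list, and MITF, AXL, DUSP6, CCND1, FOSL1, FN1, LIF and CXCL8. Further list members are named as examples, chosen after their values were seen. Some items are not reported here. The contrast and the 23 lists (501 entries) were chosen with earlier results of these data known. Alternatives were RLE size factors, DESeq2 1.42.0, no filter, a filter of 1 CPM in 2 libraries, the 8 libraries alone, a test against a 1.5-fold change, a replicate block, 451Lu at 72 h, and each library left out. Promoters came from RefSeq (GRCh38.p14).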

Additional observations from a re-analysis of the deposited data

Results flagged for a closer look

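The change at the end state differed between the lines by the test of the difference itself in 9616 genes. Among the named genes that moved in opposite directions, the log2 difference (A375 minus 451Lu) was 7.10 for SCUBE2, 5.91 for SLAMF9, 5.13 for POU3F1, 4.99 for HAS2, 4.38 for WNT10B (2.20 with 451Lu at 72 h), 4.0 for SH2D5 and 3.43 for CKAP2L. It was -7.89 for EXTL1, -7.49 for COL15A1, -6.38 for C1QTNF1, -5.98 for XYLT1, -5.38 for ABAT and -5.31 for CTSO. The values of EXTL1, WNT10B and ABAT rest on few counts in 451Lu (7 to 87, 49 to 5 and 14 to 53). For 3 more genes the fitted value depends on the prior count: 7.64 for AC104655.3, whose 0 and 3 counts in A375 allow no fold there, -7.46 for KCNJ2, which had 10 and 0 counts in A375, and -6.70 for LRP2, which had 2 and 17 counts in 451Lu. These genes were selected by the size of both changes, and the contribution of line, drug and time was not tested.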

How the results depend on the processing

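Over 16 alternatives 124 of 138 named genes kept the same call and 13 lost it in at least 1, while KRT18 gained a call with 451Lu at 72 h (0.30). Against a 1.5-fold change the counts were 5664 for the line difference (2749 higher, 2915 lower), 4415 for A375 (2258 up, 2157 down), 5931 for 451Lu (3280 up, 2651 down), 1082 up in both, 588 down in both, 191 up in A375 and down in 451Lu, 271 the reverse, and 7054 for the lines on drug; that test asks for a larger change. The line difference was called in 9630 genes with RLE size factors, 8738 with DESeq2, 9436 with no filter, 9556 at 1 CPM and 9567 with the 8 libraries alone. With each library left out in turn it was called in 9016 to 9220 genes (4503 to 4621 higher, 4513 to 4648 lower), A375 in 9242 to 10543 (4856 to 5485 up, 4372 to 5183 down) and 451Lu in 9878 to 10873 (4984 to 5607 up, 4794 to 5270 down). The same ranges were 2344 to 2464 up in both, 1835 to 2091 down in both, 1407 to 1517 up in A375 and down in 451Lu, 1092 to 1152 the reverse, 11256 to 12285 for the lines on drug and 11942 to 12658 at the end. A group left with 1 library is assumed to vary like the others. With the replicate block within each line 9687 genes were called and, of the named genes, CFAP61 lost its call (edgeR adjusted p = 0.0506); deviations of same-numbered libraries correlated by -0.03 to 0.02 in A375 and -0.02 to 0.09 in 451Lu, so the numbers were not taken as pairs. Direction reversed for NRAS with 451Lu at 72 h (-0.067) and for CFAP61 without A375 48 h replicate 2 (-1.14; 2.57 to 3.67 without each other library), and the cause was not tested. Depth limits genes with few counts: 14 of the 20 widest differences had 3 or fewer counts in a group.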
